A study of Drosophila melanogaster with 3 samples.

Results

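The genes described here are drosha, pasha, Ranbp21, gw, me31B and pcm, which encode proteins that make microRNAs or act with them on messenger RNA. They were chosen by name, as genes with a probe set that the platform annotation assigns to 1 gene, and where a gene has several probe sets the one with the highest mean is taken. All 6 were measured, each by a single probe set, among 11982 genes in all. Total RNA came from OSS cells, a stable somatic line of the Drosophila melanogaster ovary that the labels trace to follicular stem cells, in exponential growth with no added treatment. It was hybridised to 3 Affymetrix arrays (replicates 1, 2 and 3), all of 1 group, so no comparison between conditions could be made and the comparisons below set levels against a background level and arrays against each other. Whether these were separate cultures is not stated, so SDs and p-values cover the spread among these 3 arrays alone, and that spread may be technical.

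A microRNA begins as a hairpin in a longer transcript. In the nucleus the ribonuclease Drosha and its double-stranded RNA-binding partner Pasha cut the hairpin out, and Ranbp21, the Drosophila exportin-5 homologue, is an export receptor of the family that carries such RNAs to the cytoplasm. There the hairpin is diced and 1 strand is loaded into an Argonaute protein. The loaded Argonaute recruits the GW182 protein, encoded by gw, which in turn brings the deadenylases and the decapping machinery to the target messenger RNA. The DEAD-box helicase Me31B represses translation and promotes decapping, and Pacman, encoded by pcm, is the cytoplasmic exonuclease that degrades decapped messenger RNA from its 5′ end. Gw, Me31B and Pacman gather with the decapping factors in cytoplasmic granules called P bodies.

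The deposited values are log2 expression levels per probe set. The background level was 2.49 on that scale, the 95th percentile of the means of 112 odorant and gustatory receptor genes, whose proteins serve smell and taste and which were assumed to be silent in this line. Calls above or below it needed a limma adjusted p under 0.05, and a gene with neither call was left unresolved. Of the 6 genes, 5 were above background and 1 was unresolved. Of 11870 genes outside the receptor list, 5466 (46.0%) were above and 5746 (48.4%) below. The below calls depend on the setting. None was made outside the receptor list with 1 variance shared by all genes, after median centring, or when replicate 1, 2 or 3 was left out. Nor was any made with a background from odorant receptors alone or from bacterial controls. The median of the 6 gene means was 4.37, and that of all genes outside the receptor list was 2.47. Probe sets differ in affinity, so these medians are a description only and each gene is read against background, not against other genes.

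The label of the line was checked against markers. Of 6 measured follicle cell markers 4 were above background, read against 46.0% of genes outside the receptor list. Tj measured 6.83 ± 0.69, zfh1 5.10 ± 0.25 and br 3.89 ± 0.21 (SD, n = 3), and Egfr 4.22 on every array. The lowest probe set of br gave 2.39. The other markers of this list, cas and slbo, were below. All 6 germline markers, vas, nanos, osk, bam, AGO3 and orb, were below, each at 2.39 on every array. These below calls, like those of cas and slbo, rest on identical values and small differences (-0.098 log2 units for vas). Of markers of other cells, 3 of 6 for hemocytes, 2 of 5 for neurons and glia, 1 of 4 for muscle and 0 of 4 for fat body were above. The shares for hemocytes (50%) and for neurons and glia (40%) were near the 46.0% of all genes outside the receptor list. From these 2 lists Pxn measured 4.43 ± 0.27 and moody 4.32 ± 0.59 (SD, n = 3), and the lowest probe set of Pxn gave 2.41. Fas3, the marker that the labels name, was not analysed here.

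For the nuclear step, drosha and pasha both had signal above background, with a clear margin for drosha and a small one for pasha. Drosha measured 3.72 on all 3 arrays, identical to every deposited digit. It was 1.24 log2 units above background (limma, adjusted p = 2.6e-05). Pasha measured 2.70 on all 3 arrays, again identical, 0.21 log2 units above background (limma, adjusted p = 0.00063). The receptor gene with the highest mean reached 2.79, which lies over pasha and under drosha. With that receptor gene as the level, the difference for pasha was -0.091 log2 units and it was not called above. Such an SD of 0 is a property of the values as deposited and not the error of the measurement, so the p-values of drosha and pasha are too small. With 1 variance shared by all genes in place of each gene's own, drosha and pasha were still called above background. That setting takes the shared variance as known, so only its calls are given and its p-values are not used.

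For the export step, Ranbp21 measured 5.25, 4.91 and 5.29 on the arrays of replicates 1, 2 and 3. All 3 values lay over 2 log2 units above background, and the array of replicate 2 gave the lowest. The mean was 5.15 ± 0.21 (SD, n = 3), 2.66 log2 units above background (limma, adjusted p = 0.00060). Replicates 1 and 3 differed little, with an SD of 0.025 between them when replicate 2 was left out, against 0.21 over all 3 arrays.

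The Argonaute partner gw measured 5.19, 4.59 and 5.27 in replicates 1, 2 and 3. As for Ranbp21, replicates 1 and 3 lay close together and replicate 2 lay under them. The mean was 5.02 ± 0.37 (SD, n = 3), 2.53 log2 units above background (limma, adjusted p = 0.0024), and without replicate 2 the SD was 0.060. The probe set of gw belongs to a type whose name in the array design marks sequence shared by several transcripts, so signal from another transcript cannot be told apart.

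The helicase gene me31B was above background on every array and differed most between arrays among the 6 genes. It measured 6.76 in replicate 1, 5.24 in replicate 2 and 7.90 in replicate 3. The 3 values were thus far apart, the highest 2.66 log2 units over the lowest, or 6.31 times on the linear scale. The mean of 6.63 ± 1.33 (SD, n = 3) was 4.14 log2 units above background, with a 95% interval from limma of 1.82 to 6.46 (adjusted p = 0.015). Without replicate 1 the gene was 4.08 log2 units above background and was not called (limma, adjusted p = 0.078), and without replicate 2 or 3 it was called (limma, adjusted p = 0.017 and 0.041). Its SD was 1.88, 0.80 and 1.08 when replicate 1, 2 or 3 was left out. The lowest of its 3 values was still 2.75 log2 units above background.

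The exonuclease gene pcm lay at background. It measured 2.51 on all 3 arrays, identical to every deposited digit, 0.026 log2 units above the background level. It was not called above (limma, adjusted p = 0.071), so signal over background was not detectable. Nor was pcm called above with 1 variance shared by all genes. With the plain limma variance estimate, which takes in the many genes with identical values, it was called above, as it also was with a background from odorant receptors alone or from bacterial controls. The highest receptor gene lay 0.28 log2 units over it. A low signal on an array does not show that the transcript is absent.

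**Figure D1:**
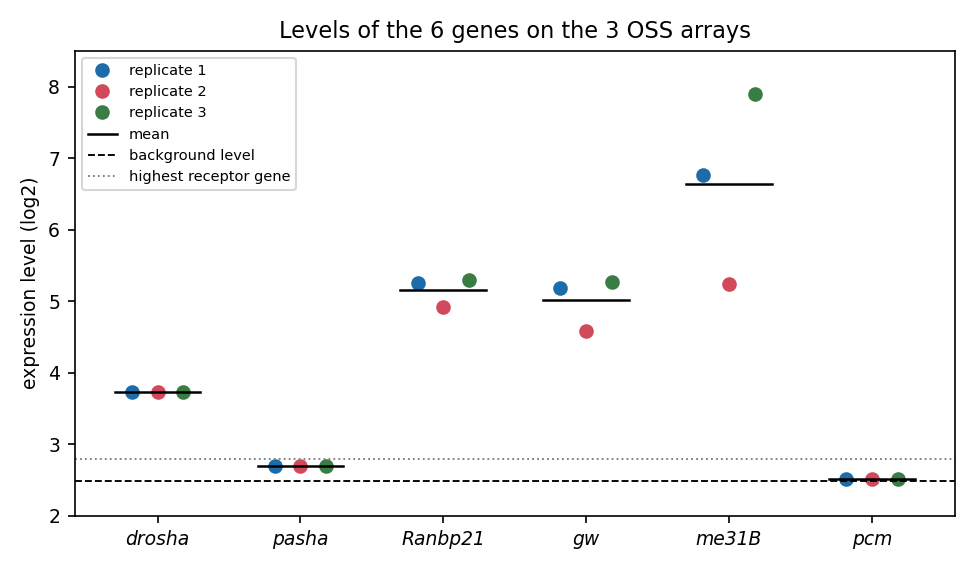
Log2 expression level of drosha, pasha, Ranbp21, gw, me31B and pcm, with a point for each of the 3 OSS arrays and a bar at the mean; the dashed line is the background level of 2.49 and the dotted line the highest receptor gene at 2.79. The points of drosha, pasha and pcm are identical on all arrays, pasha and pcm lie under the dotted line, and the points of me31B run between 5.24 and 7.90.

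At a stricter level, 1 log2 unit over background, 4 of the 6 genes were called, against 25.4% of genes outside the receptor list. These were drosha, Ranbp21, gw and me31B, with adjusted p-values from limma of 0.0010, 0.0032, 0.014 and 0.049.

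The genes fell into 2 kinds by their spread over arrays. Drosha, pasha and pcm had identical values on all arrays, as did 27.9% of the genes above background and 59.8% of all genes. Ranbp21, gw and me31B varied, and the median SD of the 3941 varying genes above background was 0.13. The SD of me31B exceeded that of 99.9% of the 5466 genes above background, and 5 of them, me31B included, had an SD at least as large. Among 441 genes above background with means within 0.5 log2 units of it, 2 had an SD as large, me31B included. For gw the share of genes above background with a smaller SD was 89.2%, and for Ranbp21 it was 74.4%.

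All 3 varying genes were lowest in replicate 2 and highest in replicate 3. Of the 3941 varying genes above background, 43.3% were lowest in replicate 2, and 22.5% had this full order. Relative to its own mean, Ranbp21 deviated by 0.10, -0.24 and 0.14 log2 units in replicates 1, 2 and 3. The deviations of gw were 0.17, -0.43 and 0.26, and those of me31B were 0.13, -1.39 and 1.27. The median deviation of the varying genes above background was 0.01, -0.05 and 0.01, and their mean deviation was 0.05, -0.10 and 0.05, so replicate 2 was also the lowest over these genes together. After quantile normalization me31B measured 6.66, 5.35 and 7.84, and the order of its arrays was kept.

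Control probe sets at the 3′ and 5′ ends of transcripts differed between the arrays as well. The 3′ signal minus the 5′ signal of the eIF-4a control was 1.31, 1.14 and 2.31 log2 units in replicates 1, 2 and 3. The actin control gave -1.66, -1.86 and -0.94, and the GAPDH control gave 0.72, 0.42 and 0.78. In all 3 controls this difference was lowest in replicate 2 and highest in replicate 3, the order of me31B, gw and Ranbp21. The marker lists did not share 1 order. Summed log2 levels in replicates 1, 2 and 3 were 14.23, 13.78 and 14.95 for the 5 neuronal and glial genes and 10.82, 10.64 and 11.93 for the 4 muscle genes, the order of me31B. They were 25.49, 24.51 and 24.45 for the 6 follicle cell genes, highest in replicate 1 and lowest in replicate 3. For the 6 hemocyte genes they were 18.26, 17.53 and 18.10, highest in replicate 1 and lowest in replicate 2. Within that list crq (3.54, 3.48 and 3.60) and srp (2.86, 2.73 and 2.88) had the order of me31B. Pxn (4.69, 4.14 and 4.44) was highest in replicate 1, and Hml, eater and NimC1 were below background at 2.39 on every array. The sums were 14.34 on every array for germline and 9.57 on every array for fat body. Within the neuronal and glial list moody varied (4.23, 3.79 and 4.96) and was above background, as was elav at 2.72 on every array, while repo was unresolved at 2.50 and nSyb and Appl were below at 2.39. Within the muscle list Prm varied (2.72, 2.65 and 3.92) and was unresolved, Mlc2 was above background (3.31, 3.21 and 3.23), and up and Act88F were below at 2.39. Within the follicle cell list tj, at 7.45, 6.96 and 6.09, was lowest in replicate 3, where me31B was highest. In the same list zfh1 (5.01, 4.91 and 5.38) had the order of me31B. There br (4.03, 3.65 and 3.98) was lowest in replicate 2 and highest in replicate 1, and Egfr, cas and slbo had identical values on all arrays. The part of any of these in the spread of the 3 genes was not tested.

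**Figure D2:**
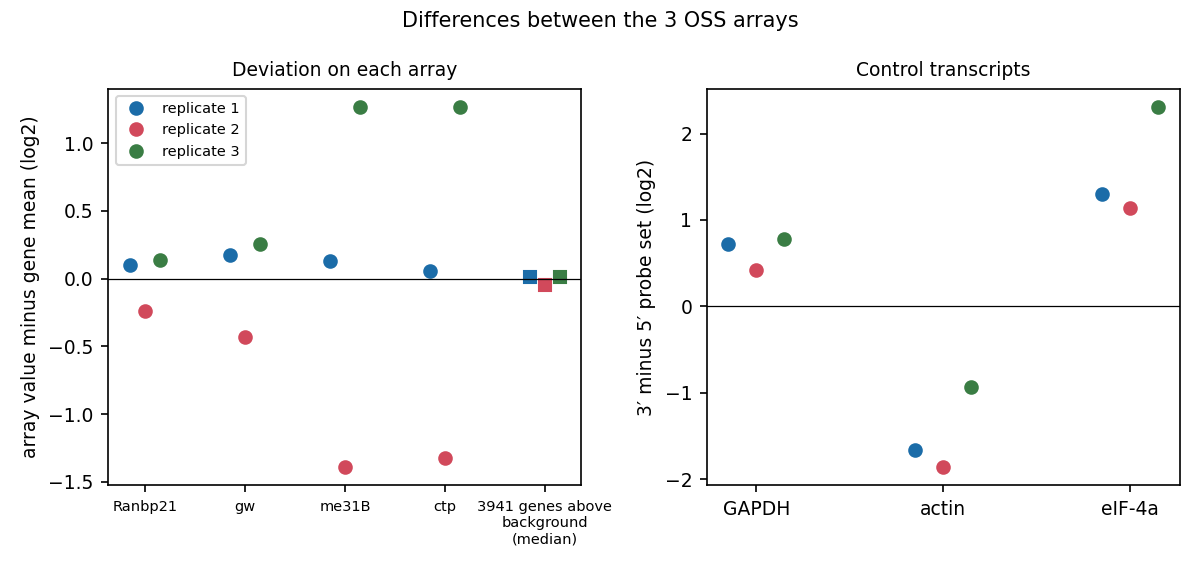
Left, log2 value on each array minus the gene's mean for Ranbp21, gw, me31B and ctp, with the median deviation of the 3941 varying genes above background (squares). Right, log2 signal of the 3′ probe set minus that of the 5′ probe set for 3 control transcripts. Replicate 2 is lowest and replicate 3 highest in every column of points except the squares, where replicates 1 and 3 are both at 0.01.

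Patterns over the arrays were compared by the root mean square distance between deviations from each gene's mean, over the 3 arrays and 5465 other genes above background. The nearest to me31B was ctp, a dynein light chain gene, at a distance of 0.059 log2 units; it measured 6.14, 4.76 and 7.35. The next were Ip259 at 0.20 and CG11825 at 0.24, and ctp alone lay within 0.1. For gw the nearest were RpL32, a ribosomal protein gene, at 0.010 and CG6766 and CG4998, both at 0.013 to 0.014, among 140 genes within 0.1. For Ranbp21 the nearest were Chchd3 at 0.0041, CG2201 at 0.0044 and Nse4 at 0.0055, among 431 genes within 0.1. Between the members the distance was 0.14 for gw and Ranbp21, 0.81 for gw and me31B and 0.93 for Ranbp21 and me31B. With 3 arrays these distances describe the arrays used and carry no test.

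The other genes of the pathway were mostly above background, read against the 46.0% of all genes outside the receptor list. Of 11 further measured genes of the microRNA machinery 10 were above and 1 was unresolved, with a median mean of 5.95. Without probe sets of shared sequence, the type used here for Ars2, Ran, Hsc70-4 and Fmr1, 7 were above, with fewer genes tested. The Dicer-1 partner gene loqs measured 3.69 ± 0.0045, and Cbp20 and Cbp80, of the nuclear cap-binding complex, measured 5.41 ± 0.10 and 4.11 ± 0.26 (SD, n = 3); a second probe set of Cbp80 gave 2.43. Tailor, which adds uridines to microRNA hairpins, measured 5.95 ± 0.17, and Tudor-SN, a nuclease found with the silencing complex, measured 6.67 ± 0.19. Ars2, a partner of the cap-binding complex in microRNA processing, varied widely, with 4.74, 4.39 and 6.48 in replicates 1, 2 and 3 (limma, adjusted p = 0.026). Ran, the small GTPase that gives exportins their direction, measured 7.48 ± 0.53. The chaperone genes Hsc70-4, Stip1 and p23, whose proteins help load Argonautes, measured 11.58 ± 0.31, 8.61 ± 0.55 and 7.43 ± 0.22. Fmr1, an RNA-binding protein gene, was unresolved at 2.90 ± 0.24. Dcr-1, AGO1, nbr and Hsp83 were not analysed here.

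The parallel small interfering RNA machinery was measured through 5 genes, and all 5 were above background. Dcr-2, its Dicer, measured 5.51 ± 0.50, and r2d2, the Dicer-2 partner gene, measured 3.41 ± 0.0090 (SD, n = 3). The small RNA methyltransferase gene Hen1 measured 2.96 ± 0.047, vig 4.17 on every array and the helicase gene Rm62 8.56 ± 0.20. At the stricter level 3 of the 5 were called, and AGO2 was not analysed here.

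Of 11 measured genes for decapping and P-body proteins, the partners of me31B and pcm, 10 were above background and 1 was unresolved. Without probe sets of shared sequence, the type used here for DCP2, Ge-1, eIF4E1 and 4E-T, 7 were above, with fewer genes tested. The decapping enzyme gene DCP2 measured 6.48 ± 0.23, the scaffold gene Ge-1 4.87 ± 0.82 and the enhancer gene Edc3 2.99 ± 0.0033 (SD, n = 3). The decapping activator gene Patr-1 measured 4.53 ± 0.13, and LSm1, LSm3 and LSm7, of the ring that binds deadenylated ends, measured 4.31 ± 0.16, 5.32 ± 0.40 and 6.85 ± 0.00031. Rat1, the nuclear counterpart of pcm, measured 3.26, 2.90 and 3.26 and was above background by 0.65 log2 units (limma, adjusted p = 0.015). The helicase gene bel measured 6.33 ± 0.40 and the cap-binding gene eIF4E1 7.03 ± 0.67. The unresolved gene was 4E-T, whose protein binds eIF4E, with 2.83 in replicates 1 and 2 and 4.30 in replicate 3. Dcp1, tral, LSm2, LSm4, LSm5 and LSm6 were not analysed here.

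Genes for the deadenylases that the gw protein recruits, and for poly(A)-tail proteins, were above background in 10 of 11 cases, with 1 unresolved and a median mean of 4.18. The catalytic subunit genes of the CCR4-NOT complex, Pop2 and twin, measured 4.13 ± 0.49 and 3.94 ± 0.055 (SD, n = 3). Its other subunit genes Not3, Rga and Rcd-1 measured 4.39 ± 0.36, 4.18 ± 0.20 and 6.37 ± 0.35. Not10 measured 4.26 on every array and Not11 3.09 ± 0.28, with a second probe set of Not11 at the lowest value of 2.39. PAN2 and PAN3, of the second deadenylase, measured 5.59 ± 0.35 and 3.63 on every array. The poly(A)-binding protein gene pAbp measured 7.68 ± 0.25, and Paip2, which encodes a partner of that protein, was unresolved at 2.80 ± 0.33. Without probe sets of shared sequence, the type used here for Rcd-1, Pop2, twin, PAN3 and pAbp, 5 genes of this list were above. Fewer genes are tested in that setting. Not1 was not analysed here.

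The exosome degrades messenger RNA from the 3′ end, the opposite end to pcm. All 12 measured genes of the exosome and its helicases were above background, with means from 2.89 for Rrp6 to 6.15 for Mtr4 and a median of 4.02; 8 of them were called at the stricter level. The largest SD was 0.15, for Rrp46. Ski3 was not analysed here. In nonsense-mediated decay, which removes messenger RNAs with early stop codons, 3 of 4 genes were above. The endonuclease gene Smg6 measured 4.83 ± 0.24 and the helicase gene Upf1 3.12 ± 0.065 (SD, n = 3). Upf3 measured 3.20 on every array, with a second probe set at 2.43. Upf2 was below background at 2.41 on every array, a difference of -0.073 log2 units. Smg1 and Smg5 were not analysed here.

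Genes for nuclear transport factors, the wider process in which Ranbp21 acts, were above background in 7 of 8 cases. The general export receptor gene emb measured 4.06 in replicates 1 and 2 and 4.99 in replicate 3, and Ranbp16, another exportin gene, measured 3.23 ± 0.081 (SD, n = 3). Cse1, which returns importin-alpha to the cytoplasm, measured 6.88 ± 0.46, and Nxt1, a cofactor of messenger RNA export, measured 8.29 ± 0.22. The import receptor genes Tnpo, msk and Karybeta3 measured 3.45 ± 0.17, 5.81 ± 0.039 and 7.42 ± 0.080. Fs(2)Ket, the importin-beta gene, was unresolved despite a mean of 4.42, with 4.43, 3.27 and 5.56 in replicates 1, 2 and 3 (limma, adjusted p = 0.058). These values rank the arrays as me31B does. Ranbp9 and sbr were not analysed here.

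The order of replicates seen for me31B, gw and Ranbp21 was counted over the varying genes of each list, beside the 43.3% lowest in replicate 2 and the 22.5% in the full order among all varying genes above background. In the decapping and P-body list 3 of 11 were lowest in replicate 2 and 2 had the full order. In the other microRNA machinery the counts were 6 and 5 of 11, in the siRNA list 1 and 1 of 4, and in deadenylation 7 and 6 of 9. In the exosome list they were 1 and 0 of 9, in nonsense-mediated decay 1 and 0 of 2, and in nuclear transport 5 and 3 of 8. Unlike the shares over all genes, the list counts take in varying genes that were not above background. Among these, Fmr1, Paip2 and Fs(2)Ket were unresolved and had the full order. These counts describe 3 arrays and carry no test.

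**Figure D3:**
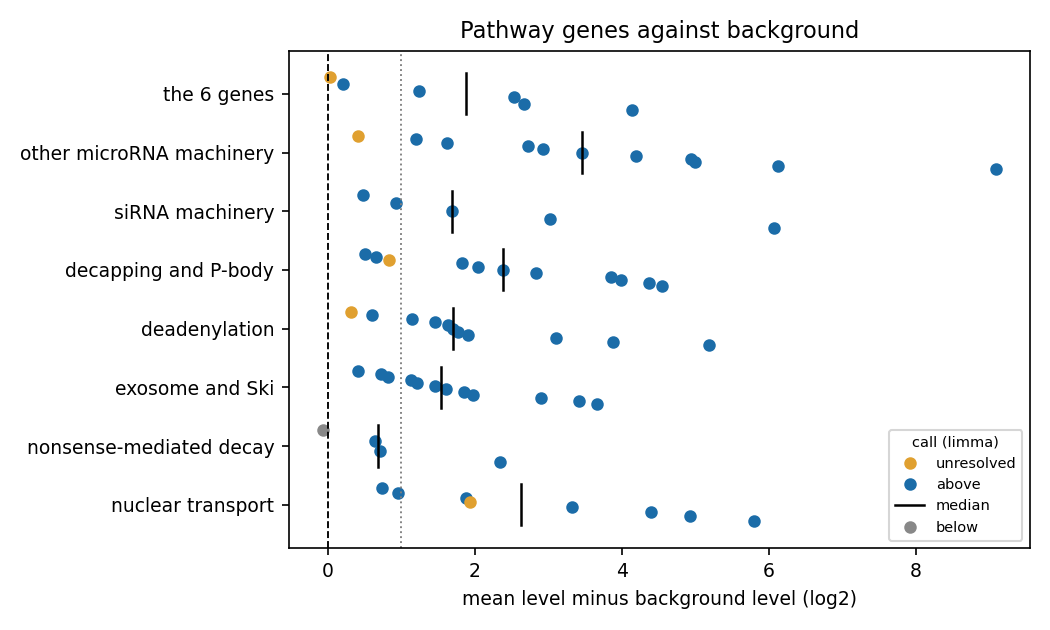
Mean level minus background level (log2) for the 6 genes and for 7 lists of related genes, a point per gene coloured by its limma call, with a bar at each list's median. The dashed line is background and the dotted line is the stricter level 1 log2 unit over it; 1 gene, Upf2, lies below background.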

How the data were processed

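Per the labels' protocols, total RNA was converted to biotin-labelled cRNA and hybridised to Affymetrix arrays, and scanner files entered the authors' custom scripts. Neither the array normalization and summary method nor the genome build is given in the sources used here, so no coordinates are given. The deposited values are log2 levels for 18952 probe sets per array, the base being inferred from their range of 2.39 to 14.75; they were used as deposited. Values were identical on all 3 arrays in 67.2% of probe sets. Pearson correlations between arrays across probe sets were 0.986 to 0.995, so no array was a copy. Genes were named through the platform annotation (13647 probe sets with 1 gene, 402 with several, 4903 unlisted), and the 6 symbols matched RefSeq by gene identifier.

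Each gene was tested against background in R 4.3.3 using limma 3.58.1 (an intercept-only fit, one-sided each way, Benjamini-Hochberg over 11982 genes). The prior variance came from genes whose values were not identical, because the others shrink it, and was then applied to every gene. Its prior degrees of freedom of 0.63 moderate little where a gene's own SD is large. For genes with identical values, drosha, pasha and pcm among them, the prior supplies all of the variance and their calls rest on it. The number of arrays limits the precision. The 6 genes, lists and tests were chosen with earlier results of these data known. Genes named are the 6, measured members of the listed pathways and markers, and, for each of the 6 with an SD over 0.1, the 3 genes nearest in pattern. The alternatives tried were other variance estimates, background levels, scalings, probe set rules and leaving out each array.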

Additional observations from a re-analysis of the deposited data

Results flagged for a closer look

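Signal lay in a probe set outside the gene results. The probe set that the annotation assigns to both CG34310 and cup, of which cup encodes a translational repressor found in P bodies, measured 4.37 on average, with 4.37, 4.37 and 4.39 in replicates 1, 2 and 3. It was left out because its signal cannot be assigned to 1 of these genes.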

How the results depend on the processing

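No paired analysis was possible because the arrays form 1 group. Under 16 other settings, 1588 of 1840 recomputed values over 120 results were counted as unchanged. For a level this meant the same direction, and a call in that direction made or not made as before. For instance, pcm was unresolved at first and below the stricter level, and counted as unchanged. Counts could change by no more than 1.5 times, and an SD by no more than its own first value. Drosha, Ranbp21 and gw were above background under every alternative that measured them; gw has no value without probe sets of shared sequence. Me31B was lost only without replicate 1 (4.08 log2 units above background). Leaving out 1 array gave 3.51 to 4.86 for me31B, 4718 to 5150 genes above background and 4 to 5 of the 6 genes.

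The call of pasha was lost at the stricter level (0.21 log2 units above background) and reversed with the highest receptor gene as level (-0.091). Pcm was reversed at the 99th percentile of receptors (-0.092) and with the highest receptor gene (-0.28). It was called above with plain limma (0.026), odorant receptors only (0.090), bacterial controls (0.10), quantile normalization (0.025), the probe set with the lowest mean (0.066) and the mean of probe sets (0.046); in the last pair the background level was lower. Counts above background moved at the stricter level to 3017 genes, 3 for the siRNA list, 1 for nonsense-mediated decay and 4 for nuclear transport, and without probe sets of shared sequence to 3 for the siRNA list and 5 for deadenylation, where fewer genes are tested. The SDs of drosha, pasha and pcm, 0 as deposited, became 0.056, 0.012 and 0.0028 after quantile normalization and 0.060 each after median centring.

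Reversals of single genes were repo at the 99th percentile (-0.11) and with the highest receptor gene (-0.29), elav with the highest receptor gene (-0.069), Upf2 with bacterial controls (0.00084), and, with the lowest probe set, Cbp80 (-0.016), Not11 (-0.058), Upf3 (-0.017), br (-0.058) and Pxn (-0.038). Where no cause is named, the cause was not tested.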
